A study of Homo sapiens with 6 samples.

Results

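The integrin and laminin genes of a human prostate cancer cell line were followed across 2 gene knockdowns. Integrins are cell surface receptors that hold cells to the extracellular matrix, and laminins are the matrix proteins on which epithelial cells rest. The genes were chosen by name: protein-coding genes whose symbol began with ITGA or ITGB, or that named a laminin alpha, beta or gamma chain (LAMA, LAMB or LAMC with a single digit). Proteins that bind integrins and the integrin-like gene ITGBL1 were left out. Of 17811 listed genes, 25 met the rule: 13 integrin alpha chains, 4 integrin beta chains and 8 laminin chains. A further 13 genes of this form in the GENCODE 29 annotation were not analysed here (ITGA8, ITGA11, ITGAD, ITGAM, ITGAX, ITGB2, ITGB3, ITGB6, ITGB7, LAMA1, LAMA2, LAMA4 and LAMB4).

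An integrin is a pair of an alpha and a beta chain, and the pair decides which ligand is bound. ITGB1 pairs with most alpha chains, whereas ITGB5 and ITGB8 pair with ITGAV and ITGB4 pairs with ITGA6. A laminin is a trimer of an alpha, a beta and a gamma chain: LAMA5 with LAMB1 or LAMB2 and LAMC1 makes the laminins common in adult epithelial basement membranes, and LAMA3 and LAMB3 belong to a laminin that anchors basal epithelial cells through the ITGA6 and ITGB4 pair. In the prostate, loss of the basal cell layer and of part of its laminins and integrins is a known feature of carcinoma.

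The cells were 22RV1, an established human prostate cancer line that grows without androgen, kept in RPMI-1640 with fetal bovine serum. They stably expressed a short hairpin RNA, and the 3 groups differ in its target: luciferase for the control shLuc, IMPA1 for shIMPA1 and IMPDH2 for shIMPDH2. Each group had 2 poly(A) RNA libraries. IMPA1 releases free inositol from inositol phosphates, and IMPDH2 catalyses the limiting step in making guanine nucleotides. All 3 groups carry a hairpin and share the same culture medium. What a hairpin or line does beyond its target therefore cannot be told apart from the knockdown. Whether the paired libraries came from separate cultures, separate stable lines or different hairpins against the same target is not stated in the labels. The p-values then cover no more than the spread between the libraries sequenced, and that spread may be technical.

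Libraries held 20828900 to 27773294 reads in the listed genes, and the integrin and laminin genes took 0.102% to 0.123% of them. Values are normalized reads, the counts divided by 1 size factor per library. Each hairpin lowered its own target: IMPA1 fell by 0.52 on the log2 scale in shIMPA1 (limma adjusted p = 0.0145) and IMPDH2 fell by 0.61 in shIMPDH2 (limma adjusted p = 0.00999). The pair of shIMPA1 libraries lay furthest apart, with 934 genes differing more than 2-fold between them, against 266 in shLuc and 398 in shIMPDH2. All 8 luminal prostate markers were listed, with summed levels of 88534 to 120820 normalized reads, highest in the shLuc libraries. The 5 endothelial markers were not analysed here.

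Integrin and laminin genes moved in both directions. In shIMPA1, 6 of the 25 rose (among them LAMA3, LAMC1, ITGB5, ITGA9 and ITGAL) and 5 fell (LAMA5, LAMB1, ITGA1, ITGA4 and ITGA7). In shIMPDH2, 3 rose (LAMA3, ITGB5 and ITGA9) and 8 fell (LAMA5, LAMB1, LAMB2, LAMC3, ITGA1, ITGA4, ITGA7 and ITGB8). All 25 passed the filter on low values, at least 10 normalized reads in at least 2 libraries, and a call is a Benjamini-Hochberg adjusted p under 0.05 from limma over all 17742 genes tested. Among all genes tested, 30.2% were called in shIMPA1 (14% higher, 16.2% lower) and 17% in shIMPDH2 (7.86% higher, 9.15% lower), against 44.0% of the integrin and laminin genes in each. The set was chosen with earlier results of these data known, so its higher share may come from the choice. The median log2 fold change of the 25 genes was -0.0531 in shIMPA1, beside 0.0164 over all genes tested, and -0.104 in shIMPDH2, beside -0.00605. Both comparisons share the shLuc libraries, so the values of shIMPA1 and shIMPDH2 are set side by side and are not independent of each other. Without shLuc library 1 or 2, shIMPA1 kept 7 calls among the 25 genes, and without any single library of its comparison shIMPDH2 kept 4 or 5. In bulk RNA, fewer cells that express a gene and less RNA per cell cannot be told apart.

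**Figure D1:**
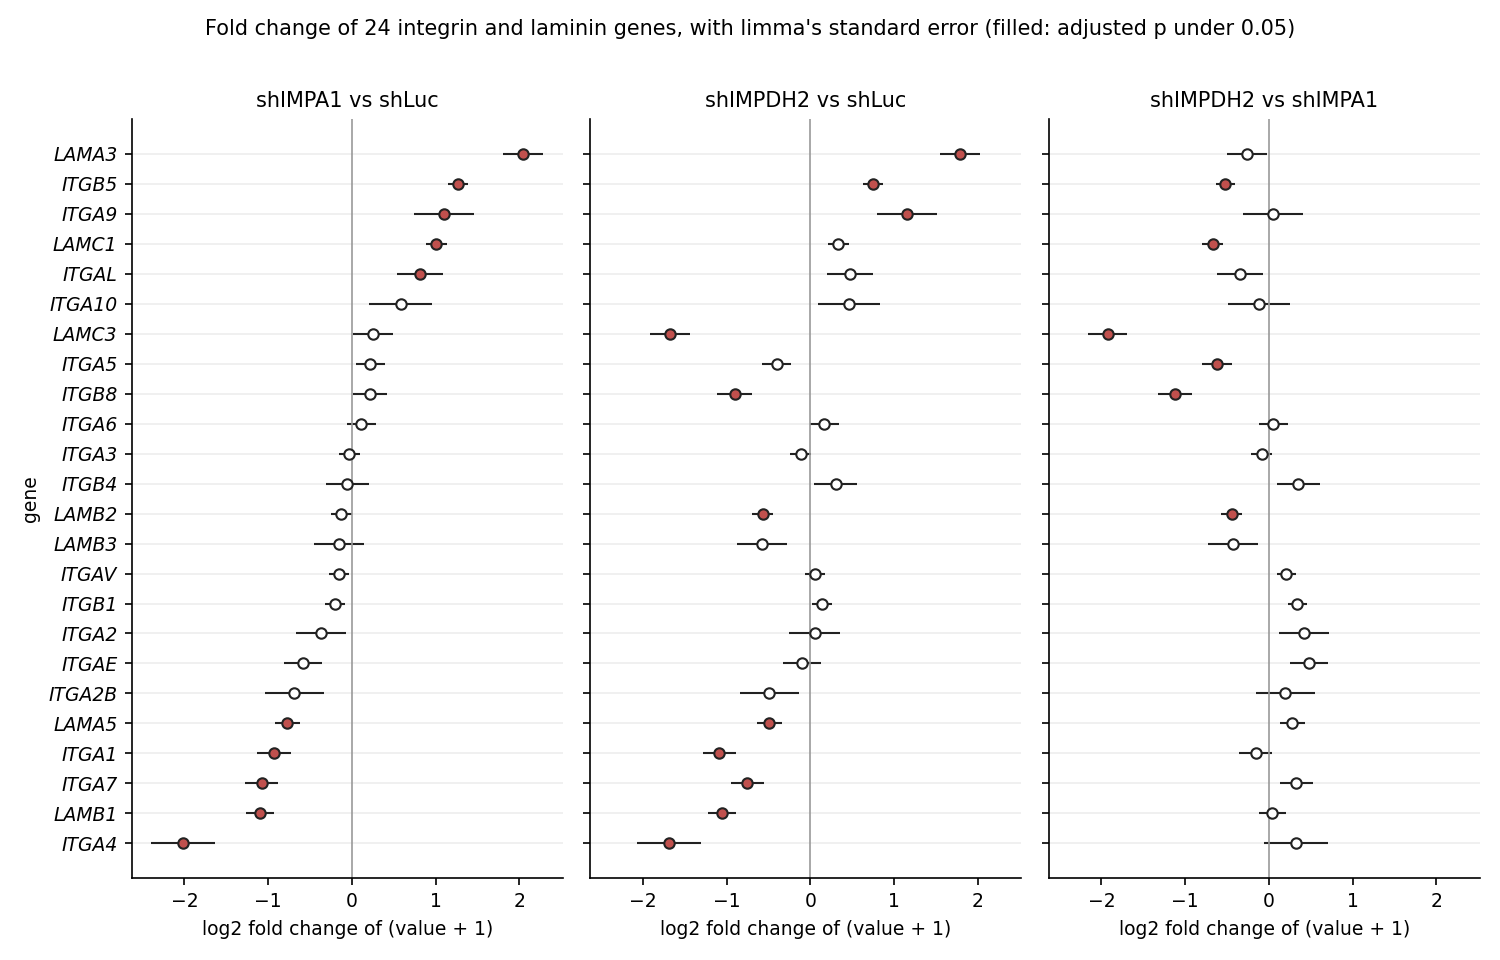
Log2 fold change of (value + 1), on the x axis, for 24 of the 25 integrin and laminin genes (y axis, ordered by the change in shIMPA1), in 3 panels for shIMPA1 against shLuc, shIMPDH2 against shLuc and shIMPDH2 against shIMPA1. Bars are limma's standard error and filled points are called: LAMA3 and ITGB5 lie to the right in both knockdowns, ITGA4 to the left, and no filled point lies to the right between the knockdowns.

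Among the laminin alpha chains, LAMA3 rose and LAMA5 fell. LAMA3 (chr18:23689443-23956222, GRCh38), an alpha chain of basal epithelia, had 26.1 and 28.9 normalized reads in the shLuc libraries, 96.0 and 141 in shIMPA1, and 94.7 and 99.0 in shIMPDH2. Every knockdown library was above both control libraries, by more than the spread within any group. The log2 fold change was 2.04 ± 0.24 (limma SE; limma adjusted p = 0.00017) in shIMPA1 and 1.78 ± 0.24 (limma adjusted p = 0.000703) in shIMPDH2, a 4.12-fold and a 3.44-fold rise. LAMA5 (chr20:62307955-62367312), the main alpha chain of adult epithelia, had 3186 and 2982 normalized reads in the shLuc libraries, 2133 and 1529.7 in shIMPA1, and 2265 and 2122 in shIMPDH2. All 4 knockdown libraries lay below the controls. The log2 fold change of the gene was -0.77 ± 0.15 (limma adjusted p = 0.00366) in shIMPA1 and -0.49 ± 0.15 (limma adjusted p = 0.0480) in shIMPDH2. The LAMA5 call in shIMPA1 was lost without shLuc library 1 (limma adjusted p = 0.0522), and that in shIMPDH2 was lost without any single library of its comparison (limma adjusted p = 0.174 to 0.287).

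LAMA3 is a gene of basal epithelial cells, and markers of those cells moved beside it. Of 4 basal prostate markers, KRT5, KRT14 and KRT15 were listed and TP63 was not analysed here. Their summed level was 0.90 and 6.13 normalized reads in the shLuc libraries, 12.6 and 170 in shIMPA1, and 185 and 198 in shIMPDH2. KRT14 and KRT15 were at 0 in shLuc library 1, and KRT5 was at 0 in shIMPA1 library 1. In that library LAMA3 stood at 96.0 normalized reads with a basal sum of 12.6. With shIMPA1 library 2 left out, the log2 fold change of LAMA3 in shIMPA1 was 1.77, with library 1 standing alone for its group. The part of basal markers in the rise in either knockdown was not tested. LAMB3, the beta chain that joins LAMA3, had 34.2 and 31.5 normalized reads in the controls, 25.1 and 34.5 in shIMPA1 and 21.9 and 21.4 in shIMPDH2, with no call.

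Laminin beta chains were lower or without a call. LAMB1 (chr7:107923799-108003255) had 829.9 and 934 normalized reads in the shLuc libraries, 486 and 348 in shIMPA1, and 417 and 429 in shIMPDH2. Every knockdown library lay below both controls, by more than the spread within any group. LAMB1 fell 2.14-fold in shIMPA1 (log2 fold change -1.10 ± 0.16, limma adjusted p = 0.000774) and 2.08-fold in shIMPDH2 (-1.06 ± 0.16, limma adjusted p = 0.00162). LAMB2 (chr3:49121114-49133118), the alternative beta chain, had 2162 and 2209.5 normalized reads in shLuc, against 2189 and 1831 in shIMPA1 and 1445 and 1500.35 in shIMPDH2. The shIMPA1 libraries overlapped the controls, and both shIMPDH2 libraries lay below all others. LAMB2 fell in shIMPDH2 (log2 fold change -0.57 ± 0.12, limma adjusted p = 0.0104) and had no call in shIMPA1 (-0.13 ± 0.12, limma adjusted p = 0.473). Without any single library of the comparison, the LAMB2 call in shIMPDH2 was lost (limma adjusted p = 0.0906 to 0.108).

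The laminin gamma chains separated the knockdowns. LAMC1 (chr1:183023460-183145592), the gamma chain of most laminins, had 3378 and 3837 normalized reads in the controls, 7499.8 and 6979.95 in shIMPA1 and 4841.5 and 4257 in shIMPDH2. All knockdown libraries were above the controls, and the shIMPA1 libraries stood apart from the other 4. LAMC1 rose 2.01-fold in shIMPA1 (log2 fold change 1.01 ± 0.13, limma adjusted p = 0.000276) and had no call in shIMPDH2 (0.33 ± 0.13, limma adjusted p = 0.0961). LAMC3 (chr9:131009082-131094473), a gamma chain of restricted expression, had 76.5 and 96.3 normalized reads in the shLuc libraries, 112 and 93.2 in shIMPA1, and 27.7 and 24.7 in shIMPDH2. Its shIMPDH2 libraries held fewer reads than any other, and its shIMPA1 libraries overlapped the controls. LAMC3 fell 3.19-fold in shIMPDH2 (log2 fold change -1.67 ± 0.24, limma adjusted p = 0.000871), with no call in shIMPA1 (0.25 ± 0.24, limma adjusted p = 0.456).

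The promoters of LAMA3, LAMC1, LAMA5 and LAMB1 are shown because, in shIMPA1, the first pair of these laminin genes rose and the second pair fell. They are RefSeq sequences on GRCh38.p14, read in the direction of transcription. Each begins 250 bases before the start of the RefSeq transcript and ends before the first base that lies in an annotated exon. LAMC1 and LAMA5 have all 250 bases, LAMB1 has the first 156 and LAMA3 the first 70. Capitals mark the GC box GGGCGG on either strand, the element bound by SP1. The LAMA3 stretch (chr18:23872770-23872839, plus strand) lies before an internal start of the gene, the LAMC1 stretch is chr1:183023170-183023419 (plus strand), the LAMA5 stretch chr20:62367313-62367562 (minus strand) and the LAMB1 stretch chr7:108003256-108003411 (minus strand).
LAMA3: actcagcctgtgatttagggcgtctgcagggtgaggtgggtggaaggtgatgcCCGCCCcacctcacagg
LAMC1: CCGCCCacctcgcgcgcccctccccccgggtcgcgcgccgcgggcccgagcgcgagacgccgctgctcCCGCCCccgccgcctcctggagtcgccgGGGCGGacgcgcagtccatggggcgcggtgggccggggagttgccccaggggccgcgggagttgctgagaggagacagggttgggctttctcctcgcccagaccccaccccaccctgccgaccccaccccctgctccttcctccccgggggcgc
LAMA5: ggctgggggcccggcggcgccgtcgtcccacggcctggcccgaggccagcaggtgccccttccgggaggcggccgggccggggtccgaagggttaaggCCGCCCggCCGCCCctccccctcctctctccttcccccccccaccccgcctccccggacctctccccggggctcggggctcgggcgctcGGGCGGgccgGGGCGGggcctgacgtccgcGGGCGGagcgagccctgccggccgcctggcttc
LAMB1: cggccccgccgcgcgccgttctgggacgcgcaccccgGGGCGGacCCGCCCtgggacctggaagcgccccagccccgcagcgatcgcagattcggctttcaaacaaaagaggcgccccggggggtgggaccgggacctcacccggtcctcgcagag
The LAMA3 stretch has 62.9% G or C and 1 GC box, LAMC1 has 79.6% and 3, LAMA5 has 82.8% and 5, and LAMB1 has 75.0% and 2. The median over all promoters of the table, taken over the full 250 bases, is 58.0% G or C. Over those 250 bases LAMA3 has 60.4% and 1 GC box, and LAMB1 has 70.4% and 4. The 18 integrin and laminin genes with an entry have 25 promoters in the table. Over the full 250 bases, 15 of those 25 held a GC box on either strand, as did 42.6% of all 35116 promoters. The AP-1 motif TGANTCA was in LAMA3 and LAMB3 and in 6.57% of all promoters. The LAMA3 matches are not within the printed stretch. The TEAD motif GGAATG was in ITGA5, ITGA10 and ITGB1 and in 11.9% of all promoters. ITGA3, ITGA7, ITGA9, ITGAL, ITGB4 and LAMC3 were among the genes with no entry. A match is a description of letters and not a site of binding, and no motif other than these 3 was searched.

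Levels between genes were compared as normalized reads per kilobase of exon. On that scale LAMC1 was the most abundant laminin chain in shLuc (429 ± 38.6, SD, n = 2), ahead of LAMB2 (318 ± 4.91), LAMA5 (216 ± 10.1) and LAMB1 (108 ± 9.02), and LAMA3 was the least abundant at 1.87 ± 0.134. LAMA5 made up 99.2% and 99.1% of the alpha chain level in the shLuc libraries, 95.8% and 91.8% in shIMPA1, and 96.1% and 95.7% in shIMPDH2. LAMA3 made up the rest and so stayed a minor chain. The ratio of LAMC1 to LAMB1 was 3.94 and 3.98 in shLuc, against 15.0 and 19.4 in shIMPA1 and 11.2 and 9.62 in shIMPDH2. For LAMC1 to LAMA5 it was 1.80 and 2.19 in the controls, 5.98 and 7.76 in shIMPA1 and 3.63 and 3.41 in shIMPDH2. In both ratios the 3 groups did not overlap, and shIMPA1 was highest. Ratios are a description and carry no test.

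**Figure D2:**
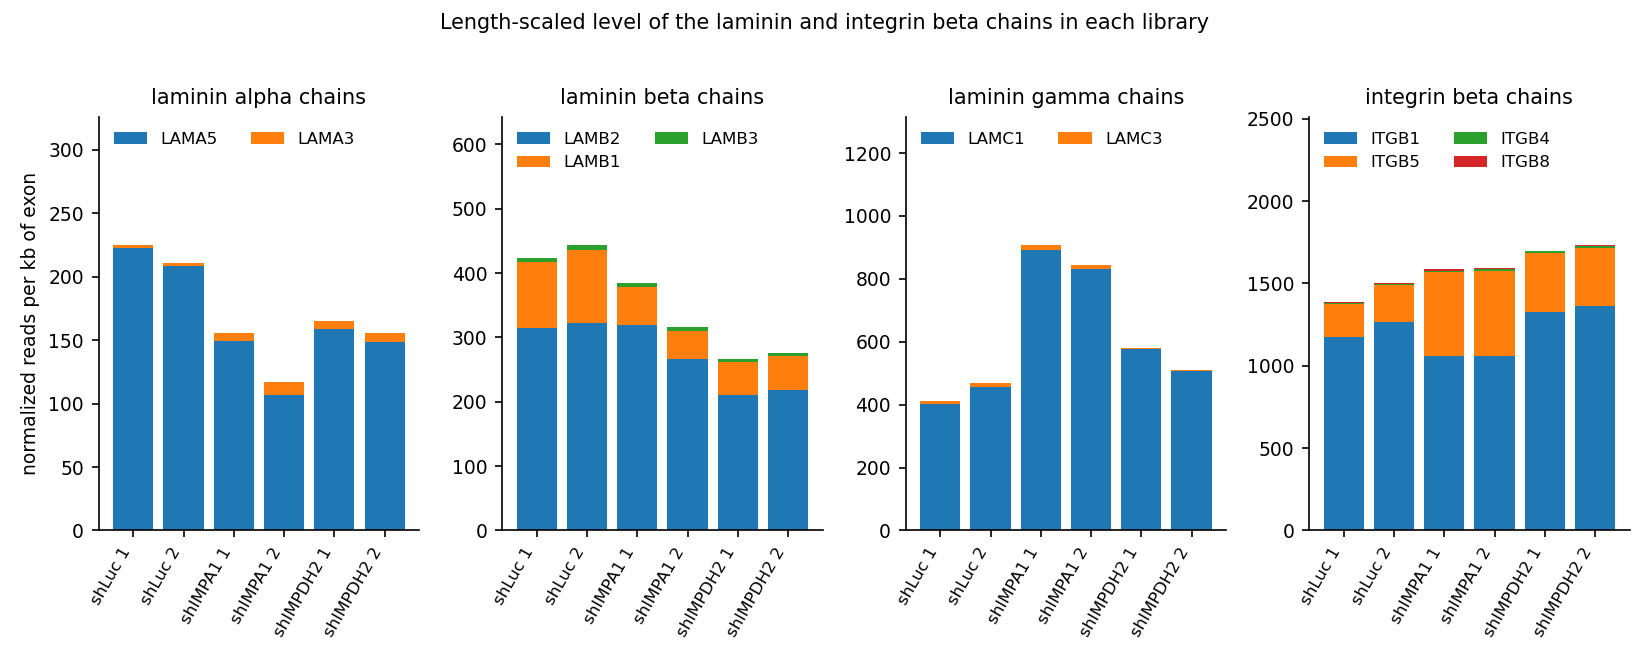
Normalized reads per kilobase of exon (y axis) of the laminin alpha, laminin beta, laminin gamma (LAMC1 and LAMC3) and integrin beta chains, stacked for each of the 6 libraries (x axis). The gamma chain bars of shIMPA1, almost all LAMC1, are the tallest of their panel, and ITGB5 takes a larger piece of the integrin beta bars in both knockdowns than in shLuc.

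**Figure D3:**
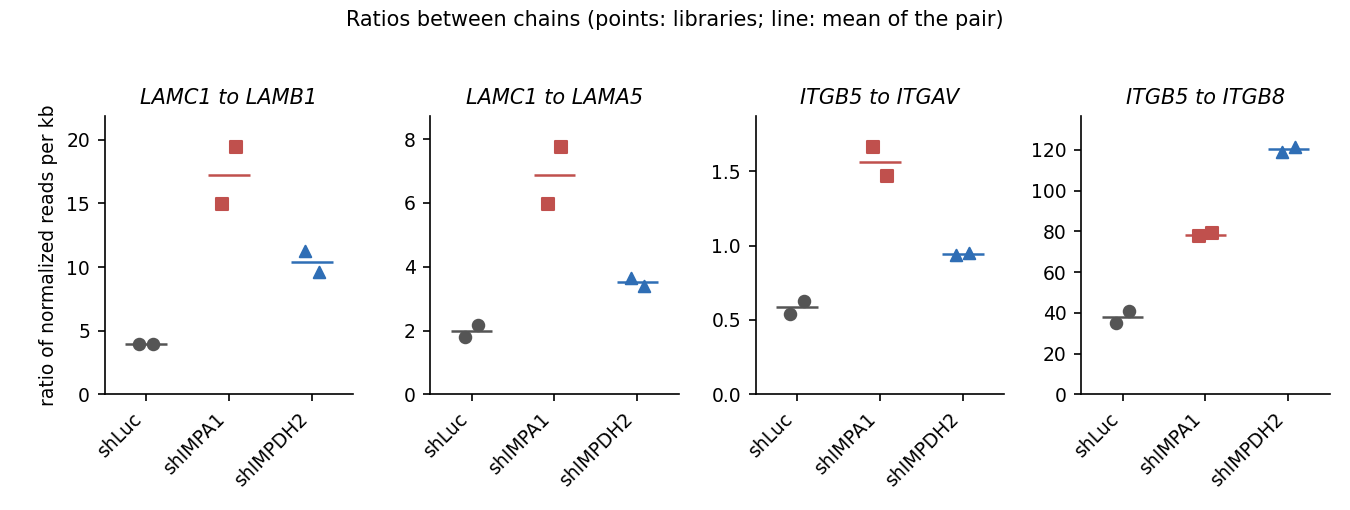
Ratio of normalized reads per kilobase (y axis, from 0) between 4 pairs of chains in shLuc, shIMPA1 and shIMPDH2 (x axis), with 1 point per library and a line at the mean of the pair. LAMC1 to LAMB1, LAMC1 to LAMA5 and ITGB5 to ITGAV are highest in shIMPA1, and ITGB5 to ITGB8 is highest in shIMPDH2.

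Among the integrin beta chains, ITGB5 rose in both knockdowns, ITGB8 fell in shIMPDH2 and ITGB1 had no call. ITGB1 (chr10:32900319-33005792), the shared partner of most alpha chains, was the most abundant of the 25 genes per kilobase in shLuc, at 1218 ± 63.9 (SD, n = 2) normalized reads per kilobase. Its normalized reads were 7048 and 7592 in shLuc, 6376 in each shIMPA1 library, and 7958 and 8200.2 in shIMPDH2. The groups did not overlap, yet the differences were small: -0.20 ± 0.12 in shIMPA1 (log2 fold change, limma adjusted p = 0.233) and 0.14 ± 0.12 in shIMPDH2 (limma adjusted p = 0.440).

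ITGB5 (chr3:124761948-124901418), which pairs with ITGAV to bind vitronectin, had 1291 and 1456 normalized reads in the shLuc libraries, 3283 and 3319 in shIMPA1, and 2340.5 and 2265 in shIMPDH2. The 3 groups were separate, with shIMPA1 highest and shLuc lowest. ITGB5 rose 2.41-fold in shIMPA1 (log2 fold change 1.27 ± 0.12, limma adjusted p = 3.4e-05) and 1.68-fold in shIMPDH2 (0.75 ± 0.12, limma adjusted p = 0.00161). Its share of the integrin beta chain level per kilobase was 14.4% and 15.0% in shLuc, against 32.1% and 32.4% in shIMPA1 and 21.4% and 20.3% in shIMPDH2. ITGAV (chr2:186590065-186680901), its alpha partner, had 3041 and 2947 normalized reads in the controls, 2513 and 2883 in shIMPA1 and 3192 and 3037 in shIMPDH2, with no call. The ratio of ITGB5 to ITGAV per kilobase was 0.541 and 0.629 in the shLuc libraries, 1.66 and 1.47 in shIMPA1, and 0.934 and 0.95 in shIMPDH2. Thus ITGB5 stood below its partner in shLuc and above it in shIMPA1.

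ITGB8 (chr7:20330702-20415754) also pairs with ITGAV, and that pair activates latent TGF-beta. It had 86.4 and 84.0 normalized reads in shLuc, against 99.6 and 98.4 in shIMPA1 and 46.2 and 43.9 in shIMPDH2. The shIMPDH2 libraries were the lowest and the shIMPA1 libraries the highest, without overlap. ITGB8 fell in shIMPDH2 (log2 fold change -0.91 ± 0.20, limma adjusted p = 0.0127) and had no call in shIMPA1 (0.21 ± 0.20, limma adjusted p = 0.463). The call in shIMPDH2 was lost without any single library of the comparison (limma adjusted p = 0.0737 to 0.120). ITGB5 was 35.1 and 40.8 times ITGB8 per kilobase in the controls, 77.5 and 79.3 times in shIMPA1 and 119 and 121 times in shIMPDH2. ITGB4, the beta chain of hemidesmosomes, had 52.2 and 70.0 normalized reads in the shLuc libraries, 53.9 and 63.0 in shIMPA1, and 63.5 and 87.7 in shIMPDH2, with no call.

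**Figure D4:**
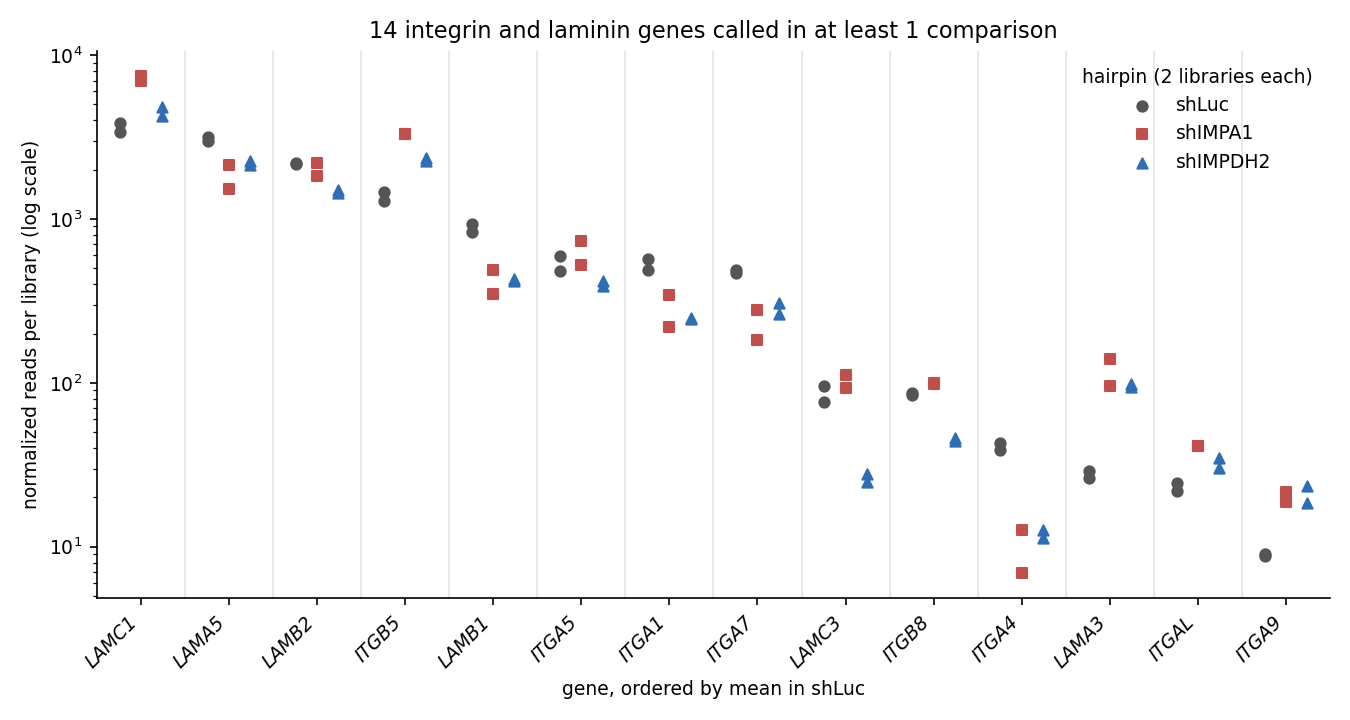
Normalized reads per library (y axis, log scale) of 14 of the 15 integrin and laminin genes called in at least 1 comparison (x axis, ordered by their mean in shLuc), with 1 point for each of the 2 libraries of shLuc, shIMPA1 and shIMPDH2. LAMA3 and ITGB5 are above shLuc in all 4 knockdown libraries, LAMB1 and ITGA4 are below it in all 4, and LAMC3 and ITGB8 are low in shIMPDH2 alone.

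Of the laminin-binding alpha chains, ITGA7 fell and ITGA3 and ITGA6 had no call. ITGA7 (chr12:55684568-55716043), best known from muscle, had 491 and 466 normalized reads in shLuc, against 278 and 183 in shIMPA1 and 306 and 262 in shIMPDH2. All 4 knockdown libraries were below the controls. The log2 fold change of the gene was -1.08 ± 0.19 (limma adjusted p = 0.00212) in shIMPA1 and -0.75 ± 0.19 (limma adjusted p = 0.0228) in shIMPDH2, the latter call lost without any single library of its comparison (limma adjusted p = 0.0894 to 0.207). ITGA3 ranged from 740 to 837 normalized reads over the 6 libraries and ITGA6, the partner of ITGB4, from 126 to 151. Neither gene changed by more than 0.17 on the log2 scale in either knockdown.

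Of the collagen-binding alpha chains, ITGA1 fell and ITGA2 and ITGA10 had no call. ITGA1 (chr5:52787896-52959210) had 486 and 571 normalized reads in the controls, 346 and 220.0 in shIMPA1 and 246 and 249 in shIMPDH2. Each knockdown library was below both controls. The log2 fold change was -0.93 ± 0.20 (limma adjusted p = 0.00556) in shIMPA1 and -1.09 ± 0.20 (limma adjusted p = 0.00421) in shIMPDH2. Without shLuc library 2, both calls were lost (limma adjusted p = 0.0827 and 0.0836), and the call in shIMPDH2 was also lost without shIMPDH2 library 1 or 2 (limma adjusted p = 0.0531 and 0.0562). Without shIMPA1 library 2 the change in shIMPA1 was -0.61. PELO, a gene on the same strand within ITGA1, shares 2.56% of the ITGA1 exon bases, and reads there cannot be assigned with certainty. ITGA2, 30.1 kb from ITGA1 on the same chromosome, had 370 and 403 normalized reads in the shLuc libraries, 463 and 192 in shIMPA1, and 404 and 396 in shIMPDH2. Its shIMPA1 libraries lay on either side of the controls. ITGA10 had 13.5 to 30.04 normalized reads.

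Beside these falls, the sum of stromal markers was below shLuc. Of 7 fibroblast and smooth muscle markers, 5 were listed, none was at 0 in any library, and their summed level was 585 and 623 normalized reads in shLuc, against 440 and 313 in shIMPA1 and 281 and 277 in shIMPDH2. Limma called 16.2% of all genes tested lower in shIMPA1 and 9.15% lower in shIMPDH2. Of the 4 stromal markers that were tested, it called 3 lower in shIMPA1 (LUM, COL3A1 and ACTA2) and 2 lower in shIMPDH2 (LUM and COL1A1). COL1A1 was the largest of them in every library, and with 333 and 250.2 normalized reads in shIMPA1 beside 299.7 and 364 in shLuc it overlapped the controls (limma adjusted p = 0.443). ACTA2 had no call in shIMPDH2 (limma adjusted p = 0.756). ITGA1, ITGA7 and LAMB1, which stromal cells also express, were below shLuc in all 4 knockdown libraries. Other chains did not follow the stromal sum: LAMC1 and ITGB5 were above shLuc in all 4, and ITGB1 and ITGAV had no call. The part of stromal markers in the falls of ITGA1, ITGA7 and LAMB1 was not tested.

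Of the chains that bind the RGD motif besides ITGAV, ITGA5 differed between the knockdowns. ITGA5 (chr12:54395261-54419460), the fibronectin receptor chain, had 482 and 593 normalized reads in the controls, 732 and 527 in shIMPA1 and 419 and 389 in shIMPDH2. It overlapped the controls in shIMPA1 and lay below them in shIMPDH2, with no call against shLuc (limma adjusted p = 0.376 and 0.136). ITGA2B, the platelet chain, had 48.3 to 135 normalized reads, lowest in shIMPA1 library 2, and no call.

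Alpha chains best known from leukocytes moved at low levels. ITGA4 (chr2:181457202-181536187), which binds fibronectin and VCAM1, had 38.7 and 42.9 normalized reads in the shLuc libraries, 12.6 and 6.90 in shIMPA1, and 12.7 and 11.2 in shIMPDH2. That is 92 reads over the shLuc pair, 22 over shIMPA1 and 21 over shIMPDH2. ITGA4 fell 4.03-fold in shIMPA1 (log2 fold change -2.01 ± 0.38, limma adjusted p = 0.00291) and 3.22-fold in shIMPDH2 (-1.69 ± 0.38, limma adjusted p = 0.0128), the latter call lost without any single library of its comparison (limma adjusted p = 0.0677 to 0.133).

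ITGA9 (chr3:37452115-37823514), a receptor chain for tenascin and osteopontin, was the least abundant of the 25 genes per kilobase in shLuc. It had 9.0 and 8.75 normalized reads in shLuc, against 18.8 and 21.6 in shIMPA1 and 18.5 and 23.6 in shIMPDH2, from 20, 46 and 37 reads per group. The log2 fold change of the gene was 1.10 ± 0.36 (limma adjusted p = 0.0395) in shIMPA1 and 1.15 ± 0.36 (limma adjusted p = 0.0499) in shIMPDH2. DESeq2 called neither (adjusted p = 0.166 and 0.200), and edgeR did not call ITGA9 in shIMPDH2 (adjusted p = 0.0523). Without shLuc library 1 or 2, or without shIMPA1 library 2, ITGA9 was not called in shIMPA1 (limma adjusted p = 0.128 to 0.155), and without any library of its comparison it was not called in shIMPDH2 (0.122 to 0.277). ITGA9-AS1 on the other strand shares 6.46% of the ITGA9 exon bases, the largest such share among the 25 genes.

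ITGAL (chr16:30472658-30523185), the alpha chain of the leukocyte receptor for ICAM1, had 24.3 and 21.9 normalized reads in the controls, 41.3 and 41.4 in shIMPA1 and 30.04 and 34.9 in shIMPDH2. The groups did not overlap. ITGAL rose in shIMPA1 (log2 fold change 0.82 ± 0.28, limma adjusted p = 0.0451) and had no call in shIMPDH2 (0.47 ± 0.28, limma adjusted p = 0.270). Its call in shIMPA1 was lost with DESeq2 (adjusted p = 0.165), with the 2 groups fitted alone (limma adjusted p = 0.0704) and without any single library of the comparison (limma adjusted p = 0.0592 to 0.204). ITGAE, the chain that binds E-cadherin, had 1489 and 1116 normalized reads in the shLuc libraries, 1133 and 651 in shIMPA1, and 1129 and 1274 in shIMPDH2, and all groups overlapped. HASPIN, which lies within ITGAE on the other strand, shares 6.41% of its exon bases.

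A direct comparison of shIMPDH2 with shIMPA1 asks whether the knockdowns differ. Of the 25 genes, limma called 6, or 24%, and in the fit reported each was lower in shIMPDH2. Of all genes tested it called 26.1% (13.5% higher, 12.6% lower). DESeq2 called 7, of which ITGB1 was higher in shIMPDH2 (adjusted p = 0.0343). With TMM scaling, and with a filter of 50 normalized reads, limma also called 7, of which 1 was higher in shIMPDH2. The median of the 25 was -0.0833 beside -0.00402 over all genes tested. LAMC3 had the largest difference of the 25 (log2 fold change -1.92 ± 0.24, limma adjusted p = 0.000255), followed by ITGB8 (-1.12 ± 0.20, limma adjusted p = 0.00292). Both of them, like LAMB2, were called lower in shIMPDH2 and uncalled in shIMPA1 against shLuc. LAMC1 (-0.67 ± 0.13, limma adjusted p = 0.0035) and ITGB5 (-0.52 ± 0.12, limma adjusted p = 0.00835) were higher in shIMPA1 than in shIMPDH2. ITGA5 (-0.62 ± 0.17, limma adjusted p = 0.0234) and LAMB2 (-0.44 ± 0.12, limma adjusted p = 0.0230) had the highest adjusted p-values of the 6. For LAMA3, LAMB1, LAMA5, ITGA1, ITGA4, ITGA7 and ITGA9 the difference between the knockdowns had no call, which does not show that the knockdowns acted alike.

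The differences between the knockdowns rest on single libraries to unequal degrees. Without shIMPA1 library 1, LAMA5, ITGA7 and ITGAE were among the genes called higher in shIMPDH2 (log2 fold changes 0.52, 0.63 and 0.88). Here too the single direction was lost, and more of all genes tested were called as well. Without shIMPA1 library 2, or without shIMPDH2 library 1 or 2, the calls among the 25 genes were all lower in shIMPDH2. Over all genes tested, fewer were called without either shIMPDH2 library than with all libraries. LAMC3 and ITGB8 were called in each of these fits. Without shIMPDH2 library 1 or 2 the calls on ITGB5 (limma adjusted p = 0.0676 and 0.0976), ITGA5 (0.102 and 0.171) and LAMB2 (0.154 and 0.130) were lost, and without shIMPDH2 library 2 so was that on LAMC1 (limma adjusted p = 0.0715). Without shIMPA1 library 1 the ITGA5 difference was -0.38.

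Partners of integrins and laminins were taken from 7 lists of 94 genes, of which 85 were tested. The lists were chosen with earlier results of these data known. A share of calls above that of all genes, here and for each list below, may therefore come from the choice. In shIMPA1, 8 rose and 30 fell (44.7% called, beside 30.2% of all genes tested), and in shIMPDH2, 9 rose and 17 fell (30.6%, beside 17%). Between the knockdowns 17 were higher and 8 lower in shIMPDH2 (29.4%, near the 26.1% of all genes tested). Medians were -0.176, -0.181 and 0.162 on the log2 scale. Without shLuc library 1 or 2, 18 and 16 of these genes were called in shIMPA1. Without any single library of its comparison, 10 to 13 were called in shIMPDH2. Between the knockdowns, 44 were called without shIMPA1 library 1 and 13 without shIMPDH2 library 1 or 2.

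In the basement membrane, laminins are joined by nidogen, collagen IV and related proteins. Of 14 such genes tested, 2 rose and 4 fell in shIMPA1 (42.9% called, beside 30.2% of all genes tested). In shIMPDH2, 1 rose and 6 fell (7 called, where 17% of all genes tested were). NID1, the link between laminin gamma chains and collagen IV, went from 327 and 417 normalized reads in shLuc to 88.0 and 115 in shIMPA1 and 57.8 and 31.5 in shIMPDH2 (log2 fold changes -1.87 ± 0.28 and -3.08 ± 0.28, limma adjusted p = 0.000709 and 6.17e-05). NID1 thus fell where LAMC1 did not. COL4A2 fell to 7.18 and 9.49 normalized reads in shIMPA1 and 9.24 and 13.5 in shIMPDH2, from 53.1 and 52.5 in shLuc (-2.54 ± 0.36 and -2.14 ± 0.36, limma adjusted p = 0.000583 and 0.00267), and its call in shIMPDH2 was lost without shLuc library 1 or 2 (limma adjusted p = 0.0548 and 0.0554). SMOC1, a matricellular protein of basement membranes, rose from 192 and 204 normalized reads to 5044 and 8976 in shIMPA1 and 1000.4 and 986 in shIMPDH2 (5.08 ± 0.21 and 2.32 ± 0.21, limma adjusted p = 1.1e-07 and 6.49e-05).

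Receptors for laminin other than integrins changed in both directions. Of 8 tested, 1 rose and 3 fell in each knockdown (4 called). Among all genes tested, 30.2% were called in shIMPA1 and 17% in shIMPDH2. SDC2 fell in both, from 2077 and 1903 normalized reads to 670.5 and 543 in shIMPA1 and 615 and 741 in shIMPDH2 (log2 fold changes -1.72 ± 0.15 and -1.56 ± 0.15, limma adjusted p = 2.07e-05 and 7.51e-05). SDC1 also fell in both (-1.70 ± 0.15 and -0.55 ± 0.15, limma adjusted p = 2.44e-05 and 0.0288), and its call in shIMPDH2 was lost without any single library of the comparison (limma adjusted p = 0.117 to 0.222). SDC4 rose in shIMPA1 (1.12 ± 0.15, limma adjusted p = 0.000415); all are cell surface proteoglycans of the syndecan family. Hemidesmosome partners of ITGA6 and ITGB4 were 6: 1 rose (KRT14) and 2 fell (PLEC and CD151) in shIMPA1, and 3 were called in shIMPDH2, where each rose (KRT5, KRT14 and CD151). All 3 calls in shIMPA1 were lost without shLuc library 1 or 2 (limma adjusted p = 0.0688 to 0.222). Without shIMPA1 library 2 the log2 fold change of KRT14 went from 3.18 to 1.03 (limma adjusted p = 0.356), and CD151 was not called (limma adjusted p = 0.0768). Each of the calls on KRT5, KRT14 and CD151 in shIMPDH2 was lost without any single library of the comparison (limma adjusted p = 0.0631 to 0.302). In shIMPDH2, 2 of the 3 are basal keratins, which also stand in the marker sum above.

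Of 15 ligands other than laminins, 1 rose and 8 fell in shIMPA1 (9 called, where 30.2% of all genes tested were), and 1 rose and 6 fell in shIMPDH2 (46.7% called, beside 17%). THBS1, which binds several integrins, went from 584 and 585 normalized reads to 136 and 129 in shIMPA1 and 217 and 192 in shIMPDH2 (log2 fold changes -2.14 ± 0.15 and -1.51 ± 0.15, limma adjusted p = 5.14e-06 and 0.000104). TNC, tenascin-C and a ligand of the ITGA9 chain that rose, fell in both (log2 fold changes -2.61 and -1.47, limma adjusted p = 1.48e-05 and 0.00102). EDIL3, an RGD ligand of the ITGAV and ITGB5 pair, fell in both as well (log2 fold changes -2.81 and -2.45, limma adjusted p = 0.000119 and 0.000497). NPNT, an RGD matrix protein, was the gene that rose in each, by 0.45 ± 0.12 and 0.75 ± 0.12 (limma adjusted p = 0.0143 and 0.00158).

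Inside the cell, 28 activators and adaptors of integrins were tested: 2 rose and 7 fell in shIMPA1 (32.1% called, beside 30.2% of all genes tested), 2 rose and 2 fell in shIMPDH2 (14.3%, beside 17%), and the 6 called between the knockdowns were higher in shIMPDH2 (21.4%, beside 26.1%). Each of these shares was near that of all genes, so the counts are no result about the list. TNS3, a tensin that binds integrin beta tails, fell from 136 and 164 normalized reads to 6.28 and 6.90 in shIMPA1 and 11.6 and 16.9 in shIMPDH2 (log2 fold changes -4.31 ± 0.32 and -3.33 ± 0.32, limma adjusted p = 8.15e-06 and 8.94e-05). FLNA, which competes with talin for beta tails, fell in shIMPA1 (-1.04 ± 0.14, limma adjusted p = 0.000419) and was higher in shIMPDH2 than in shIMPA1 (0.76 ± 0.14, limma adjusted p = 0.00308). Of 8 adhesion kinases, 3 were called in shIMPA1 (37.5%, beside 30.2% of all genes tested). PTK2 rose by 0.36 ± 0.12 (limma adjusted p = 0.0430). LYN and PTK2B fell (log2 fold changes -0.51 and -0.52, limma adjusted p = 0.0399 and 0.0221). All 3 kinase calls were lost without shLuc library 1 or 2 (limma adjusted p = 0.0854 to 0.274). Of 7 tetraspanins that travel with laminin-binding integrins, 5 were called in shIMPA1 and fell (71.4%, beside 30.2% of all genes tested). In shIMPDH2, 2 were called and rose (28.6%, beside 17%). Without the mean-variance trend, limma did not call CD81, TSPAN4 and CD151 in shIMPA1 (adjusted p = 0.0696, 0.0869 and 0.0780). Nor did it call CD151 in shIMPDH2 (limma adjusted p = 0.119). Compared directly, 4 tetraspanins were called (57.1%, beside 26.1%), each higher in shIMPDH2. Among them were TSPAN8 (2.06 ± 0.18, limma adjusted p = 3.3e-05) and CD9 (1.00 ± 0.12, limma adjusted p = 0.000176). CD82, another of the 4, was not called by edgeR (adjusted p = 0.0545) or DESeq2 (adjusted p = 0.0782).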

How the data were processed

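Poly(A) RNA sequencing of 22RV1 cells gave 6 libraries in 3 groups. The submitters' processing notes name Trimmomatic 0.36, STAR 2.5.2b, featureCounts from Subread 1.5.2 and DESeq2, and the build GRCh38. Per the labels' protocols, uniquely aligned reads in exons were counted per gene, by strand only if the preparation kept it. Neither that nor the annotation release is given in the sources used here, so reads of antisense or overlapping genes may be mixed. Judged by the values themselves, each deposited signal value is a read count that the authors scaled by a size factor of its library. Whole reads came back for at least 99.98% of genes in each library, within 0.05 reads. The authors' own comparison columns entered no test.

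Symbols came from a gene name table (16275 of 17811 genes) or GENCODE 29 (1475), which also gave coordinates and exon lengths, and 61 genes had no symbol. One limma model (3.58.1, R 4.3.3) with a mean-variance trend was fitted to log2(value + 1) of all 6 libraries, with 1 coefficient per group and 3 residual degrees of freedom. Fold changes on this scale understate the change of genes with few reads. The values ± SE are limma's moderated standard errors. The code was tested on simulated data in which all genes shared the same spread. Over the 3 comparisons it recovered 97% to 100% of 4-fold changes, 70.1% to 70.8% of 2-fold changes and 4.35% to 14.6% of 1.5-fold changes. A missing call thus does not show that a gene stayed unchanged. Members and gene lists were chosen with earlier results of these data known. Integrin and laminin genes that were called are given with all library values; 1 of the 25 enters the fits and counts and is not reported here. Of each partner list, up to 4 genes with the smallest adjusted p were named, and some that met this rule are not reported here. Alternatives were edgeR 4.0.16 and DESeq2 1.42.0 on the recovered reads, TMM scaling, pseudocounts of 0.5 and 5, no filter or one of 50, no trend, the 2 groups alone, a replicate block, and each library left out. Where 1 library is left out of a pair, the other is assumed to vary like the other groups.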

Additional observations from a re-analysis of the deposited data

Results flagged for a closer look

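The direct test between the knockdowns called 6 of the integrin and laminin genes (limma adjusted p under 0.05). That is 24%, beside 26.1% of all genes tested, so the count is no result about the set. The differences of shIMPDH2 from shIMPA1 on the log2 scale were -1.92 for LAMC3, -1.12 for ITGB8, -0.67 for LAMC1, -0.62 for ITGA5, -0.52 for ITGB5 and -0.44 for LAMB2. The calls on LAMC1, ITGA5, ITGB5 and LAMB2 were lost without shIMPDH2 library 2. For LAMC3 and ITGB8 the mean was above shLuc in shIMPA1 and below it in shIMPDH2, at 103 and 26.2 normalized reads beside 86.4 for LAMC3, and at 99.0 and 45.04 beside 85.2 for ITGB8. Neither was called in shIMPA1 against shLuc (limma adjusted p = 0.456 and 0.463), and the LAMC3 libraries overlapped there. LAMC1 and ITGB5 were above shLuc in all 4 knockdown libraries and higher in shIMPA1. ITGA5 had a mean of 630 ± 145 normalized reads in shIMPA1 and 404 ± 21.4 in shIMPDH2 (SD, n = 2), so the shIMPA1 libraries were the more spread. LAMB2 lay at 2010 ± 253 and 1473 ± 39.0 normalized reads.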

How the results depend on the processing

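Not every alternative tested every gene: a filter of 50 normalized reads left 20 of the 25, without ITGA4. Of 28 called fold changes of integrin and laminin genes, 12 kept direction and call under every alternative that tested the gene. Under those that also used all libraries 19 did, and 0 changed sign in any. Of the uncalled ones followed, 10 passed in at least 1 alternative. Without the mean-variance trend, limma called 3508 genes in shIMPA1, 1727 in shIMPDH2 and 2909 between the knockdowns, against 5361, 3018 and 4627. With the 2 groups fitted alone it called 6382 in shIMPDH2. Leaving out 1 library gave 2147 to 7940 genes in shIMPA1, 773 to 998 in shIMPDH2 and 1430 to 7052 between the knockdowns, of which 7 to 13, 4 to 5 and 2 to 12 were integrin or laminin genes, and 16 to 53, 10 to 13 and 13 to 44 were partners. The cause was not tested. With 2 libraries a group, 1 library left out changes the estimate of spread for all genes.

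Uncalled fold changes that turned sign with 1 library left out ranged, in shIMPA1, from -0.020 to 0.45 for ITGA5 and from -0.26 to 0.0023 for LAMB2, and in shIMPDH2 from -0.31 to 0.10 for ITGAE. Between the knockdowns they ranged from -0.48 to 0.17 for ITGA1, -0.066 to 0.71 for ITGA4, -0.12 to 0.22 for ITGA9, -0.53 to 0.012 for LAMA3 and -0.20 to 0.28 for LAMB1. With a replicate block, limma called 5298, 2939 and 4537 genes, of which 11, 10 and 6 were integrin or laminin genes. ITGAE was then called lower in shIMPA1 (adjusted p = 0.0317), and ITGAL in shIMPA1 (0.0592) and ITGA9 in shIMPDH2 (0.0603) were not. The libraries share only a number: deviations of same-numbered libraries correlated at 0.0418, -0.0488 and 0.000266 across genes. Ranks by level per kilobase moved for 6 genes when the longest transcript gave the length. Few reads limit ITGA4 and ITGA9 most.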

Other observations

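Some integrin and laminin genes lie close together. ITGA1 and ITGA2 are 30.1 kb apart on chromosome 5 and only ITGA1 was called. LAMB2 lies 91.7 kb from IMPDH2, the gene targeted in shIMPDH2, on chromosome 3. Of the 3 listed protein-coding genes between them (USP19, QARS1 and QRICH1, chosen for their position), 1 was called: USP19, which rose in both knockdowns, by 0.41 on the log2 scale in shIMPDH2 (limma adjusted p = 0.0338) and by 0.37 in shIMPA1 (limma adjusted p = 0.0320). In shIMPDH2, QARS1 and QRICH1 had log2 fold changes of 0.083 and 0.024 (limma adjusted p = 0.714 and 0.907). The part of this position in the fall of LAMB2 was not tested.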
